A study of Mus musculus with 2 samples.

Results

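The genes described here encode parts of the contractile apparatus of smooth muscle: the actins Acta2 and Actg2, the myosin subunits Myl9 and Myh11, and the actin-binding proteins Tagln and Cnn1. They were taken as a named list, not by a measured value. All 6 were present among the 18323 gene rows shared by the count tables of 2 chips (20575 rows at E9.5 and 20823 at E11.5). The samples are wildtype C57Bl/6 mouse embryos of stage E9.5 or E11.5 (days of embryonic development), from which the yolk sac and the aorta-gonad-mesonephros region (AGM, the tissue around the dorsal aorta where blood stem cells first arise) were dissected. Live singlets (7AAD-negative) were sorted by an antibody to VE-cadherin, a junction protein of endothelium, into positive and negative pools and dispensed as single cells into nanowells of an ICELL8 chip, with 1 chip for each stage. No group carries a transgene or a treatment, and how many embryos went into a pool is not given in the sources used here. Each of the 8 pools (2 stages, 2 tissues, 2 gates) is therefore 1 sample: values carry no replicate error, no test was possible, and stage cannot be told apart from chip.

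Smooth muscle contracts when myosin, switched on by phosphorylation of its regulatory light chain, pulls on actin filaments. Acta2 is the actin of vascular smooth muscle and is also made in early cardiac and skeletal muscle and in activated fibroblasts, whereas Actg2 is the actin of visceral smooth muscle such as that of the gut. Myh11 and Cnn1 appear late as smooth muscle matures, while Acta2 and Tagln appear early. At these stages mural cells are gathering around the dorsal aorta, and in the yolk sac mesodermal cells lie around the blood vessels. Serum response factor switches such genes on through CArG boxes, short motifs that open with CC, close with GG and hold 6 bases of A or T between them.

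Because the visceral and vascular actins are near copies, the sequences are shown first to say what lets counts of one be told from the other. Acta2 lies on chromosome 19 (34241090 to 34255590, minus strand, GRCm38) and Actg2 on chromosome 6 (83512905 to 83536265, minus strand). Their coding sequences of 1134 and 1131 bases in the GENCODE annotation were identical at 955 of 1134 aligned columns (84.2%), and the longest run they shared was 29 bases. After the stop codon the longest shared run was 7 bases. The last 60 coding bases, stop codon included, are shown 5′ to 3′ with the 11 bases that differ in capitals.
Acta2: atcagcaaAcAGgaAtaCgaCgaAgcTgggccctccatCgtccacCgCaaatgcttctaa
Actg2: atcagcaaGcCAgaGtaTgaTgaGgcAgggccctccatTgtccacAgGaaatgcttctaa
Differences fall throughout the stretch, so a read longer than these shared runs can be told apart between Acta2 and Actg2. Acta2 was as close to the skeletal actin Acta1 (85.4%) and the cardiac actin Actc1 (82.5%) as to Actg2. The longest coding run that Actg2 shared with Actc1 was 38 bases, longer than that with Acta2. Other actins were not compared. How the authors treated reads that map to several genes is not given in the sources used here.

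Promoter sequence from RefSeq (GRCm38.p6, 250 bases before to 50 after the start) was at hand for Acta2, Myl9 and Cnn1, and is shown where it held a CArG-type match, allowing at most 1 other base in the 6-base core. The motif reads the same on both strands. Windows are 30 bases on the gene's strand with the match in capitals, first on Myl9 (chr2:156775293-156775322 and chr2:156775355-156775384, plus strand), then on Acta2 (chr19:34255438-34255467 and chr19:34255388-34255417, minus strand).
Myl9: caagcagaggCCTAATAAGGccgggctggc
Myl9: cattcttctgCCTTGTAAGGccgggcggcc
Acta2: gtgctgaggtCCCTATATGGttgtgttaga
Acta2: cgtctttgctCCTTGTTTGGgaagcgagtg
The first Myl9 window holds a match with no other base in the core, 161 bases before the start, and the second lies 99 bases before it. Those of Acta2 lie 84 and 34 bases before its start. Of 32851 promoter windows, 3280 (9.98%) held a match with at most 1 other base and 535 (1.63%) an exact one. The Cnn1 window held no such letters. Such matches are a description of the sequence and not of binding.

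After leaving out wells with fewer than 500 genes, 2644 of 2766 sorted wells remained, 287 to 379 in each pool. Total counts ran from 850258 (E11.5 AGM positive) to 3862642 (E9.5 yolk sac negative), and median counts per well from 2532 to 12452. The summed level of 12 endothelial markers was 1332 to 2372 CPM (a gene's counts divided by all counts of the pool, times 1000000) in the positive pools and 43.2 to 103 in the negative ones. The pools thus differ by gate in these markers, but not every positive well is endothelial. At E11.5 a count of Cdh5, the gene of VE-cadherin, was found in 143 of 287 AGM positive wells and 159 of 357 yolk sac positive wells. Haemoglobin genes took a median of 19.0% to 38.1% of the counts of a well in 6 pools but 4.54% and 3.45% in the AGM negative pools at E9.5 and E11.5. Wells dispensed with no cell held 6452 counts over 48 wells at E9.5 and 17289 over 47 wells at E11.5, and the median haemoglobin share of such a well was 23.6% and 23.9%, so wells also hold counts that are not from a dispensed cell. The chips shared 473 well barcodes, and wells were kept apart by chip.

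Acta2, the vascular smooth muscle actin, had by far its highest level in the VE-cadherin-negative yolk sac cells of E11.5, and almost every well of that pool carried it. In the positive pools it stood at 32.1 CPM (AGM) and 10.1 (yolk sac) at the earlier stage and at 35.3 and 69.3 at the later. The negative pools had 51.8 CPM (AGM) and 93.7 (yolk sac) at E9.5, then 190 and 1032. The exact 95% Poisson intervals, which here and below cover counting error only, were 983 to 1082 CPM for the top pool, 165 to 218 for the E11.5 AGM negative pool and 84.3 to 104 for the E9.5 yolk sac negative pool. These top 3 did not overlap one another, except that the third overlapped the E11.5 yolk sac positive pool (55.3 to 85.6). The lowest, the E9.5 yolk sac positive pool (5.54 to 17.0 CPM), lay apart from all others, and neighbours in between overlapped.

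A pool's CPM does not tell more carrying wells from more counts per well, so both are given. In the E11.5 yolk sac negative pool 92.3% of 379 wells had an Acta2 count, 285 wells had 2 or more and 142 had 5 or more, and the richest well held 1.61% of the pool's Acta2 counts. The share was 67.9% of wells in the E9.5 yolk sac negative pool (median depth 12452 counts), 30.8% in the E11.5 AGM negative, 21.5% in the E9.5 AGM negative and 3.38% to 19.3% in the positive pools. With each well thinned to 2000 counts (shallower wells, 0 to 87 a pool, left out) the shares were 79.7% in the E11.5 yolk sac negative pool, 24.7% in the E11.5 AGM negative, 17.1% and 14.1% in the E9.5 yolk sac and AGM negative pools and 1.57% to 14.3% in the positive ones. Acta2 was thus spread over the whole E11.5 yolk sac negative pool and found in a minority of wells in every other pool at equal depth. Wells with no cell had 3 Acta2 counts at E11.5 (in 6.38% of 47 wells, 174 CPM with an interval of 35.8 to 507) and 0 at E9.5. At 6452 counts the latter allows up to 465 CPM by a floor of 3 counts and 572 by the exact interval. Stem-cell control RNA gave 29.0 CPM at E9.5 and 53.7 at E11.5, levels like those of the lower pools.

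**Figure D1:**
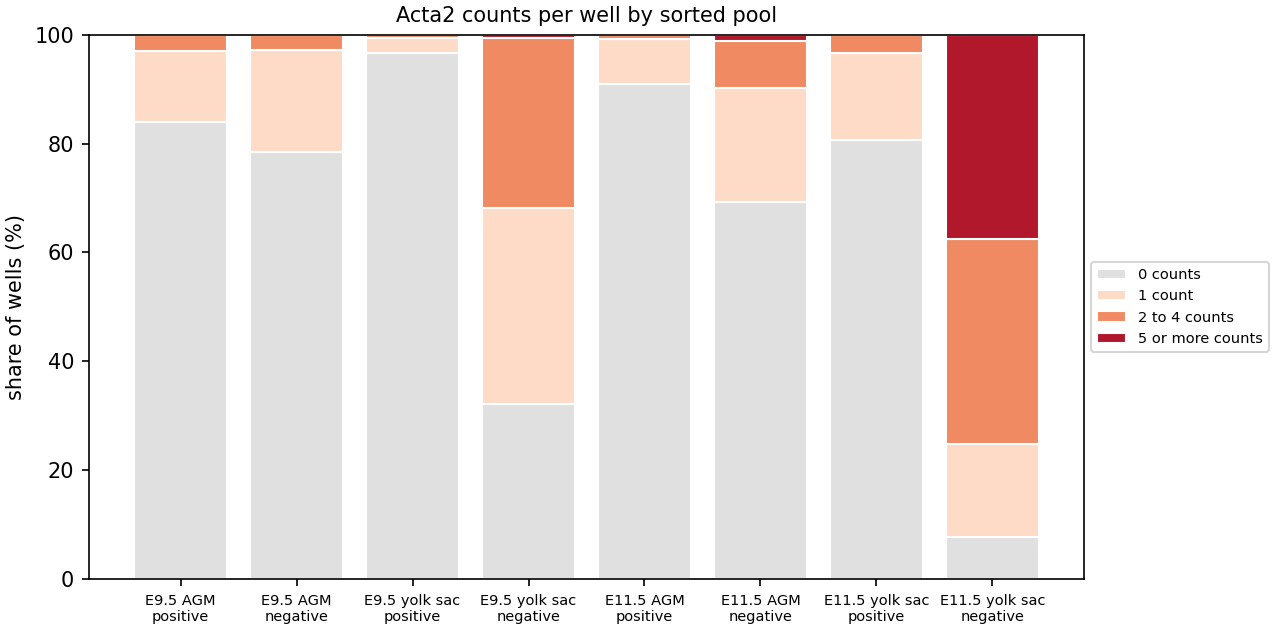
Share of wells (percent, vertical axis) with 0, 1, 2 to 4, or 5 or more Acta2 counts in each of the 8 sorted pools, not thinned. In the E11.5 yolk sac negative pool 92.3% of wells carry a count and 142 wells carry 5 or more.

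Actg2, the visceral actin, followed the same order at its top. It stood at 3.15 CPM (AGM) and 3.62 (yolk sac) in the E9.5 positive pools and at 5.88 and 8.15 in those of E11.5, from 5 to 10 counts each. The negative pools had 5.30 CPM (AGM) and 10.9 (yolk sac) at E9.5 and 21.9 and 178 at the later stage. The top pool's interval (158 to 200 CPM, from 290 counts) lay apart from the rest, and each of the other 7 overlapped its neighbour in the order. Stem-cell control RNA gave 3.22 CPM at E9.5 (1 count) and 33.5 at E11.5 (5 counts, 10.9 to 78.3). The latter interval overlapped that of the E11.5 AGM negative pool (14.1 to 32.7) and lay below that of the top pool. Actg2 was seen in 41.4% of the E11.5 yolk sac negative wells, 10.8% of the E9.5 yolk sac negative wells and 1.41% to 6.80% of the wells elsewhere. In the E9.5 AGM negative pool 1 well held 5 of the 9 Actg2 counts, with no count of any other member.

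Myl9 (chr2:156775420-156781658, plus strand, GRCm38) encodes a regulatory light chain of myosin that is abundant in smooth muscle. Positive AGM cells had 16.3 CPM at E9.5 and 5.88 at the later stage, positive yolk sac cells 9.40 and 21.2. Negative AGM cells had 42.4 CPM at first and 92.4 later, negative yolk sac cells 18.9 and 205. The top 3 (E11.5 yolk sac, E11.5 AGM and E9.5 AGM negative) did not overlap one another or the rest, and the other 5 formed a chain of overlapping neighbours. Myl9 was in 47.5% of the wells of its top pool and 20.7% of those of the E11.5 AGM negative pool.

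Myh11 (chr16:14194535-14291372, minus strand, GRCm38), the smooth muscle myosin heavy chain, was scarce and had 2 equal tops. Both E11.5 negative pools stood at 23.8 (AGM, 26 counts) and 23.9 CPM (yolk sac, 39 counts), with intervals of 15.5 to 34.8 and 17.0 to 32.7. The E9.5 yolk sac negative pool had 8.80 CPM (34 counts) and the remaining 5 had 0.815 to 2.89 CPM from 1 to 4 counts each. Only 7.92% of the E11.5 yolk sac negative wells and 5.03% of the E11.5 AGM negative wells held a Myh11 count. In the E9.5 yolk sac negative pool 1 well gave 9 of the 34 Myh11 counts together with 20 Acta2, 7 Tagln, 5 Actg2, 2 Cnn1 and 1 Myl9 counts, and without it Myh11 stood at 6.50 CPM.

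Tagln (transgelin, or SM22) binds actin filaments and is an early gene of the lineage. Positive AGM cells had 39.4 CPM at E9.5 and 9.41 at the later stage, positive yolk sac cells 5.79 and 14.7. Negative AGM cells had 53.5 CPM and then 56.7, negative yolk sac cells 30.0 and then 180. Its top pool (160 to 201 CPM) stood apart, and unlike for Acta2 the AGM pools of E9.5, positive and negative, were next to the E11.5 AGM negative pool with overlapping intervals. Tagln (chr9:45929619-45936058, minus strand, GRCm38) overlaps Pcsk7 and an antisense gene on the plus strand, and since the use of strand in counting is not given in the sources used here, reads of those genes cannot be told from its own. Its level in stem-cell control RNA was 51.5 CPM at E9.5 and 87.2 at E11.5, as high as in the AGM negative pools.

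Cnn1 (calponin, chr9:22099216-22109630, plus strand, GRCm38), which restrains myosin and marks mature smooth muscle, was near the limit of these libraries. It had 14 counts in the E9.5 yolk sac negative pool, 10 in the E11.5 AGM negative pool (9.14 CPM, its highest, interval 4.38 to 16.8), 8 in the E9.5 AGM negative pool and 0 to 3 in each of the rest. In the E11.5 yolk sac negative pool, where the other 5 members were at their highest, Cnn1 had 3 counts (1.84 CPM, 0.379 to 5.38). In the E11.5 yolk sac positive pool it had 0 counts in 357 wells. This allows a share of wells with a count of up to 0.840% by the floor of 3 counts and 1.03% by the exact interval (counting error only). All neighbours in its order overlapped, while the interval of the E11.5 AGM negative pool lay above those of 3 positive pools, E9.5 AGM (up to 2.93), E9.5 yolk sac (up to 4.03) and E11.5 yolk sac (up to 3.01).

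**Figure D2:**
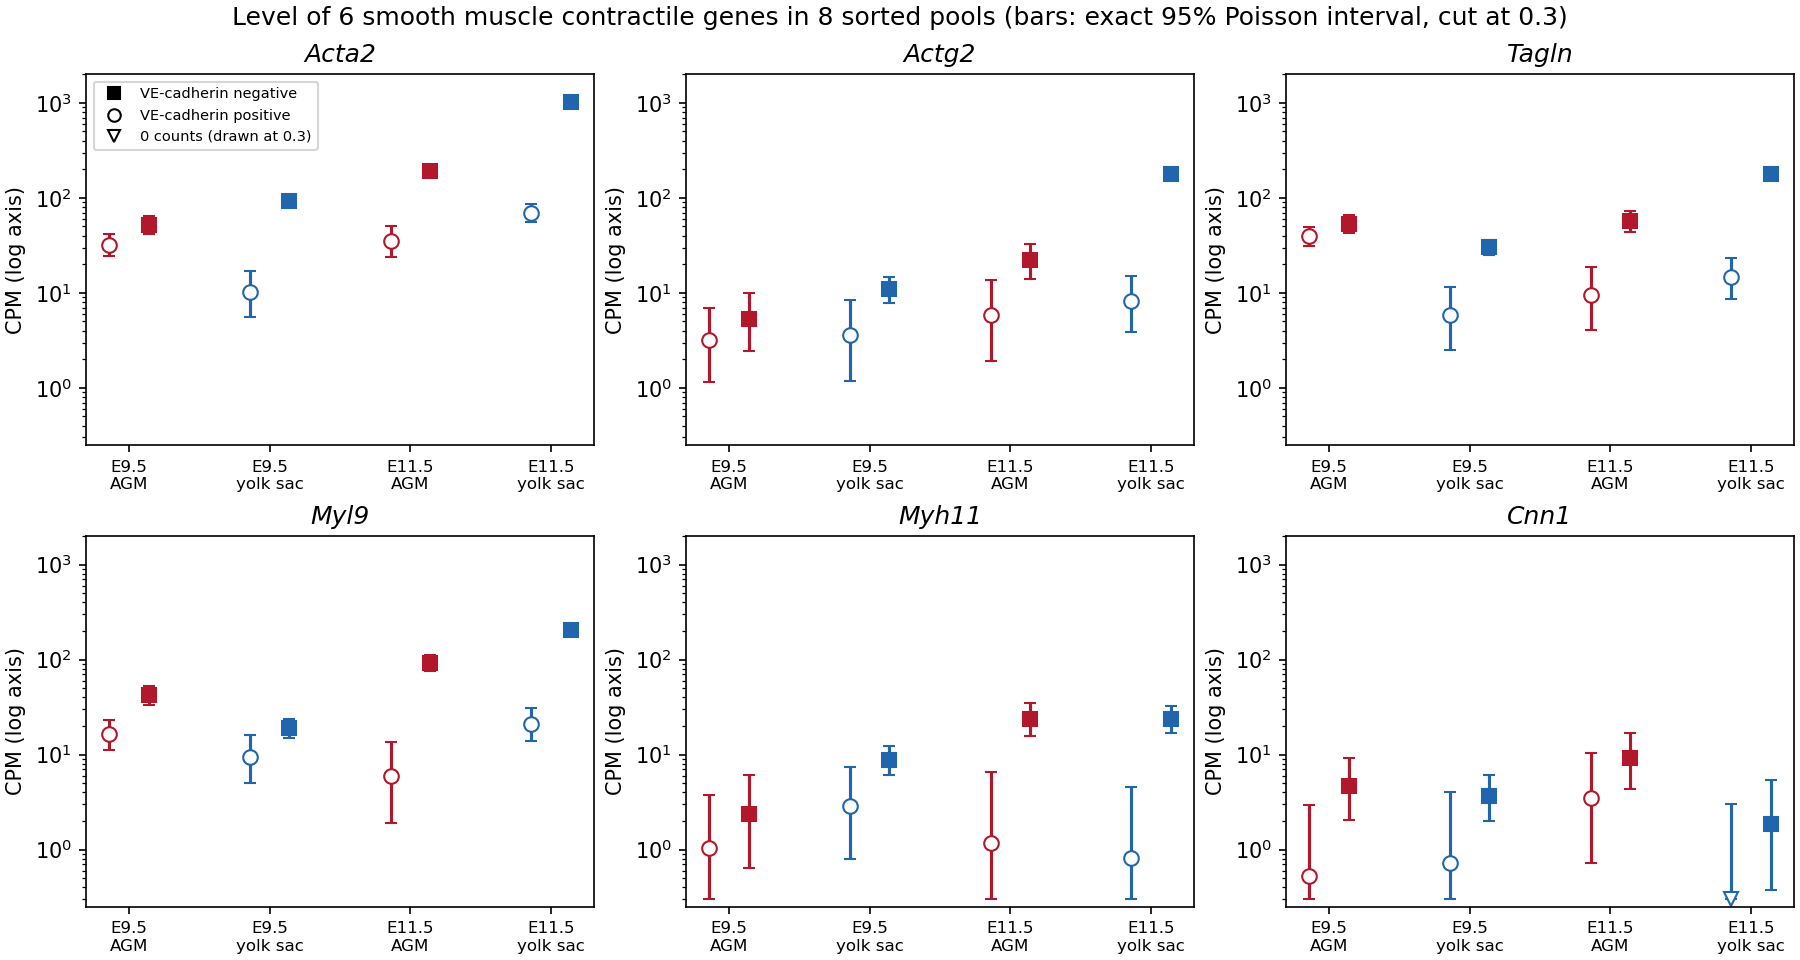
Level of each gene (CPM, log axis) in the 8 sorted pools, filled squares for VE-cadherin-negative and open circles for positive pools, red for AGM and blue for yolk sac, with exact 95% Poisson intervals. The E11.5 yolk sac negative pool is the highest for Acta2 (1032), Actg2 (178), Tagln (180) and Myl9 (205), shares the top with the AGM for Myh11 and is low for Cnn1 (1.84).

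The gate comparison sets VE-cadherin-negative against positive pools. The contractile genes were mainly in the negative pools, least clearly in the E9.5 AGM. At E11.5 the positive pools were not endothelium alone. In the AGM one, the clustering described below named 146 wells endothelial-like, 78 erythroid-like and 37 macrophage-like. A gene counts as different here when the ratio of CPM is at least 2-fold with 20 or more counts in the higher pool. In the E11.5 yolk sac, 5 of 5 members with enough counts were higher in the negative pool (15.1% of all genes tested were) and none lower (9.33%), with a median log2 ratio of 3.90 against 0.19 over all genes tested. Acta2 was 14.9-fold higher (log2 3.90, exact 95% interval 3.58 to 4.23) and Actg2 21.8-fold (4.45, 3.55 to 5.52). Cnn1 had too few counts for a ratio there.

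In the E11.5 AGM, 5 of 5 were higher in the negative pool, where 42.5% of all genes tested were also higher and 6.48% lower, with medians of 2.59 and 0.86. Myl9 had a log2 ratio of 3.97 (2.70 to 5.63), Myh11 4.34 (1.73 to 9.69, 26 counts against 1), Tagln 2.59, Acta2 2.43 and Actg2 1.90. Without the well of each pool holding most counts of the gene, Acta2 stood at 2.40 and Myl9 at 4.08. Myh11 then had no count left in the positive pool, so its value of 2.30 rests on 0 set to 3 counts. Without the 2 wells of each pool with most member counts Myh11 was 4.17. In the E9.5 yolk sac, 5 of 5 were higher in the negative pool against 2.93% of all genes tested, with medians of 1.61 and -0.81. Acta2 led with 3.21 (2.45 to 4.10), and Myl9, at 1.01 (0.14 to 1.98), was only just past 2-fold. Myh11 had 1.61 there, and 0.91 without the 2 wells of each pool with most member counts.

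In the E9.5 AGM the gate separated the members least. Of 3 with enough counts 1, Myl9, was at least 2-fold higher in the negative pool (21.2% of all genes tested were) and none lower (7.61%), with a log2 ratio of 1.38 (0.75 to 2.04), and 0.93 once the pool totals were scaled by TMM, a trimmed mean that discounts a few very abundant genes. Acta2 had a log2 ratio of 0.69 (0.20 to 1.19), an interval that takes in the median of all genes tested (0.39). With TMM scaling Acta2 stood at 0.24. The ratio of Tagln was 0.44 (-0.02 to 0.90), which changed sign to -0.01 with TMM scaling. It was 0.75 without the well of each pool holding most Tagln counts. Without the 2 wells of each pool with most member counts Tagln stood at 0.88, Acta2 at 0.85 and Myl9 at 1.63.

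The counts of Tagln in the E9.5 AGM positive pool lay in 51 of 299 wells (17.1%), and 1 well held 17 of its 75 counts beside 4 of Acta2 and 4 of Myl9. That well also carried 4 counts of Cdh5, the gene of VE-cadherin, and 3 of the endothelial gene Plvap, and it held none of 10 mesenchymal markers. Without it Tagln stood at 30.6 CPM.

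Within the positive pools the members were found both in wells with a Cdh5 count and in wells without one. In the E9.5 AGM positive pool Tagln stood at 40.1 CPM in 266 wells with a Cdh5 count (median depth 5990) and 31.5 in 33 wells without (median depth 4647), and Acta2 at 31.5 and 37.7. In the E11.5 yolk sac positive pool Acta2 stood at 66.4 CPM in 159 wells with Cdh5 and 71.6 in 198 without, present in 17.6% and 20.7% of them. In the E11.5 AGM positive pool Acta2 stood at 27.4 and 43.7 CPM, from 12 and 18 counts. The whole mesenchymal list stood at 777 CPM in the E11.5 yolk sac positive pool (10 of 10 genes with a count), 375 in the E11.5 AGM positive, and 27.9 and 70.9 in the E9.5 AGM and yolk sac positive pools (9 of 10 genes each), and its part in the members' levels there was not tested.

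The tissue comparison sets AGM against yolk sac within a stage and gate. At E11.5 the negative yolk sac pool exceeded the AGM for the actins, Tagln and Myl9 and stood at a like level for Myh11. At that stage 0 of 5 members were at least 2-fold higher in the AGM (46.1% of all genes tested were) and 4 of 5 were lower (5.96%), with a median log2 ratio of -1.66 against 0.91. Acta2 was 5.42-fold higher in the yolk sac (log2 AGM over yolk sac -2.44, -2.65 to -2.23) and Actg2 8.10-fold (-3.02, -3.68 to -2.42). Without the 2 wells of each pool with most member counts Acta2 was -2.83, outside its interval. Tagln was -1.66 (-2.08 to -1.26) and Myl9 -1.15 (-1.49 to -0.83). Myh11 was -0.01 (-0.78 to 0.74) as scaled here, and -0.88 with TMM scaling.

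Cnn1 went the other way at E11.5, with 10 counts in the AGM negative pool against 3 in the yolk sac (log2 2.31, 0.36 to 4.81), below the 20 counts asked for. Per 100 counts of Acta2, the E11.5 AGM negative pool held 12.5 of Myh11 (7.98 to 18.8), 48.6 of Myl9 (37.9 to 61.9) and 4.81 of Cnn1 (2.27 to 9.02), against 2.32 (1.64 to 3.18), 19.9 (17.7 to 22.4) and 0.178 (0.0367 to 0.522) in the yolk sac. Relative to Acta2, which is independent of the pool totals, the AGM cells therefore held more of the heavy and light myosin chains and of calponin, with intervals that do not overlap.

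At E9.5 the negative pools split by member. Of 5 members 1 stood 2-fold or more above the yolk sac in the AGM (56.8% of all genes tested were) and 2 were lower (4.76%), with medians of -0.86 and 1.18, and under either of 2 other scalings named below it was 0 higher and 3 lower. Acta2 was lower in the AGM at -0.86 (-1.21 to -0.52), Actg2 at -1.04 (-2.26 to 0.02) and Myh11 at -1.90 (-3.86 to -0.42). Without the richest Actg2 well of each pool Actg2 was -2.02, and without the 2 wells with most member counts Myh11 was -1.21. Myl9 was higher in the AGM at 1.16 (0.67 to 1.65) but at 0.03 with TMM scaling, and Tagln at 0.83 (0.42 to 1.24), which turned to -0.30 with TMM scaling and 0.23 on totals without haemoglobin and mitochondrial genes. Cnn1 was 0.38 (-1.08 to 1.73), and turned to -0.76 and -0.23 under those scalings. TMM moved all ratios of this pair by -1.13, that of the E11.5 negative pair by -0.87, and those of the E9.5 yolk sac and E11.5 AGM gate pairs by 0.83 and -0.63, pools that differ in their haemoglobin share as given above.

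Ratios to Acta2 do not depend on totals. At E9.5 the AGM negative pool held 103 Tagln counts (76.3 to 140) and 81.8 Myl9 counts (59.1 to 113) per 100 of Acta2, against 32.0 (25.8 to 39.6) and 20.2 (15.5 to 26.0) in the yolk sac. Relative to Acta2, Tagln and Myl9 were thus higher in the AGM at E9.5 whatever the scaling. In the E11.5 AGM Tagln had come down to 29.8 per 100 (22.1 to 39.8).

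In the positive pools the direction of Acta2 differed by stage. At E9.5, 2 of 3 members were at least 2-fold higher in the AGM (3.6% of all genes tested were) and none lower (8.68%), Acta2 at 1.66 (0.81 to 2.62) and Tagln at 2.77 (1.72 to 4.03). Of 2 members with enough counts at E11.5 1, Myl9, was at least 2-fold lower in the AGM (5.09% of all genes tested were), at -1.85 (-3.59 to -0.45) from 5 counts against 26. Acta2 stood at -0.97 (-1.62 to -0.36) there.

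**Figure D3:**
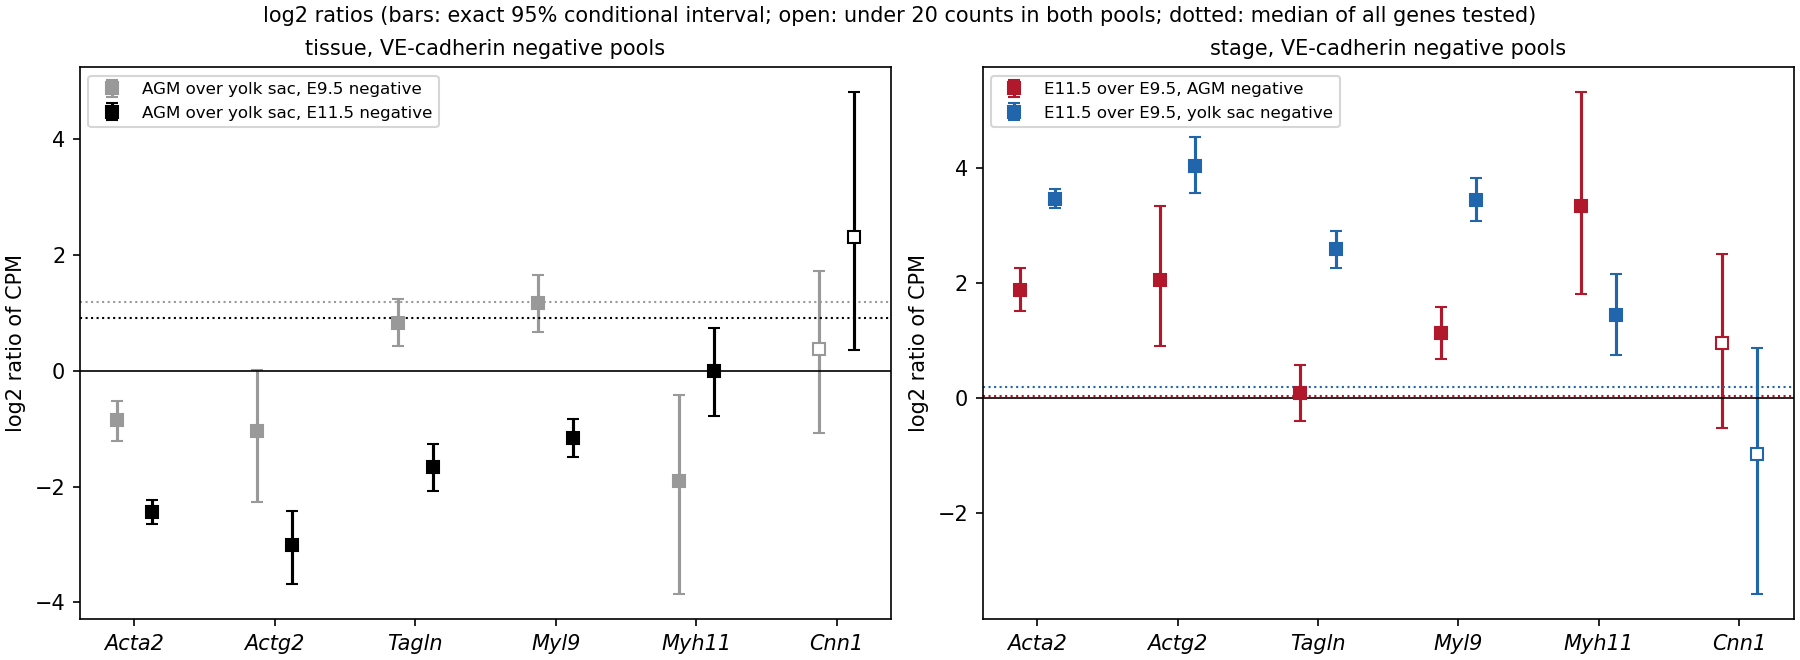
log2 ratios of CPM of the VE-cadherin-negative pools for AGM over yolk sac (left) and E11.5 over E9.5 (right), with exact 95% conditional intervals, open squares where both pools had under 20 counts and dotted lines at the median of all genes tested. At E11.5, Acta2 (-2.44), Actg2 (-3.02), Tagln (-1.66) and Myl9 (-1.15) lie below 0 on the left, and in the yolk sac Acta2 (3.46) and Actg2 (4.03) lie far above it on the right.

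The rise from E9.5 to E11.5, in which stage and chip cannot be told apart, had its largest median, of the 4 stage comparisons, in the negative yolk sac. There 5 of 5 members were at least 2-fold higher at E11.5 (31.1% of all genes tested were), with a median log2 ratio of 3.44 against 0.18. Actg2 was 16.4-fold higher (log2 4.03, 3.56 to 4.53) and Acta2 stood at 3.46 (3.30 to 3.63), followed by Myl9 (3.44), Tagln (2.58) and Myh11 (1.44). Cnn1 alone pointed down (-0.98, -3.42 to 0.86, 3 counts against 14), with an interval that takes in 0.

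In the AGM negative pools 4 of 5 were at least 2-fold higher at E11.5 (15.1% of all genes tested were), with medians of 1.88 and 0.03. Myh11 had a ratio of 3.34 (1.81 to 5.32), Actg2 2.05 (0.90 to 3.34), Acta2 1.88 (1.51 to 2.25) and Myl9 1.12 (0.67 to 1.58). The ratio of Actg2 became 3.10 without the well with most of its counts in each pool. That of Acta2 became 1.46, below its interval, without the 2 wells of each pool with most member counts. Tagln stood at 0.08 (-0.41 to 0.56), and -0.01 with TMM scaling. So in the AGM the heavy chain and the actins stood higher at the later stage while Tagln was within counting error of its earlier level.

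Positive pools differed in direction between tissues. In the AGM positive pools 2 of 3 were at least 2-fold lower at E11.5 (27.3% of all genes tested were) and none higher (8.01%), Tagln at -2.07 (-3.33 to -1.01) and Myl9 at -1.47 (-3.19 to -0.10), while Acta2 stood at 0.14 (-0.54 to 0.79). Of 2 members with enough counts in the yolk sac positive pools 2 were at least 2-fold higher at E11.5 (5.02% of all genes tested were), Acta2 at 2.77 (1.95 to 3.71) and Myl9 at 1.17 (0.16 to 2.26).

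The balance of visceral to vascular actin asks whether the yolk sac leans to one kind of smooth muscle. Between AGM and yolk sac it did not differ beyond counting error in either stage or gate. Actg2 made up 9.28% of the Actg2 and Acta2 counts in the E9.5 AGM negative pool (9 of 97, exact binomial interval 4.33 to 16.9) and 10.4% in the E9.5 yolk sac negative pool (42 of 404, 7.60 to 13.8). At E11.5 it made up 10.3% in the AGM negative pool (24 of 232, 6.74 to 15.0) and 14.7% in the yolk sac negative pool (290 of 1972, 13.2 to 16.3). The log2 ratio of Actg2 to Acta2, AGM over yolk sac, was -0.18 (-1.46 to 0.95) in the E9.5 pair and -0.58 (-1.28 to 0.06) in the later pair.

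Both intervals take in 0, so the data allow the AGM a balance from about equal to clearly less visceral at E11.5, and do not show that the tissues are alike. In the E9.5 pair the value moved to -1.20 without the richest Actg2 well of each pool, which in the AGM is the well with 5 of the 9 counts. In the E11.5 pair it moved to -0.15 without the 2 wells of each pool with most member counts. The AGM then held 23 Actg2 and 154 Acta2 counts, the yolk sac 271 and 1641. Of these AGM wells 1 had 32 Acta2 counts and none of Actg2, and carried genes of striated muscle, as given below. The positive pools gave 8.96% (E9.5 AGM), 26.3% (E9.5 yolk sac, 5 of 19 counts, 9.15 to 51.2), 14.3% (AGM of E11.5) and 10.5% (its yolk sac), with wide and overlapping intervals. Of the 12 comparisons between pools, the rise of the Actg2 share in the negative yolk sac from E9.5 to E11.5 was the only one whose interval lay off 0 (0.57, 0.07 to 1.10). The share compares pools only, since a count of each actin depends on its own length and capture.

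**Figure D4:**
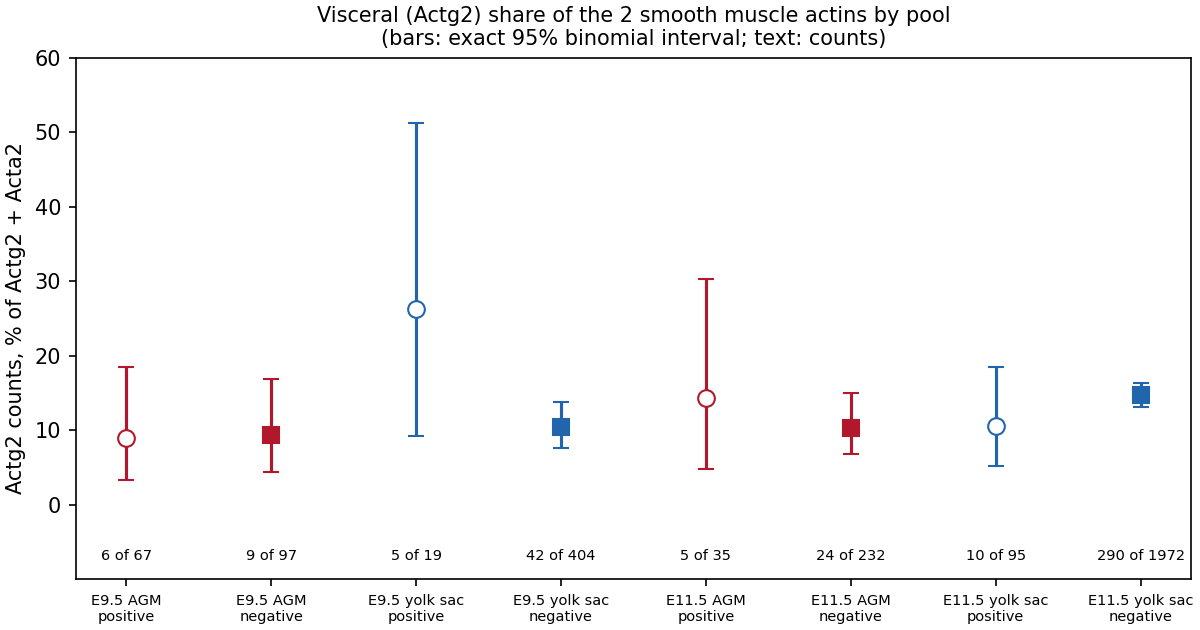
Actg2 counts as a percentage of Actg2 and Acta2 counts together in each pool, with exact 95% binomial intervals and the counts beneath. Negative pools lie between 9.28% and 14.7%, and the widest interval is that of the E9.5 yolk sac positive pool with 5 of 19 counts.

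To see which cells of the E11.5 negative yolk sac carried the genes, wells were clustered within each stage and clusters named by marker genes where these were clear. The pool held 174 mesenchymal-like, 193 erythroid-like and 9 visceral endoderm-like wells; of the 185 mesenchymal-like wells of the chip, those 174 came from this pool. The clusters were made from the same counts, so values by class are a description. The members were not confined to the mesenchymal-like wells. Acta2 stood at 1276 CPM in them, 791 in erythroid-like wells and 767 in visceral endoderm-like wells.

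As for shares of wells, an Acta2 count was found in 93.7% of the mesenchymal-like wells and 91.1% of the 191 wells of the main erythroid-like cluster, at median depths of 4279 and 3272 counts. The log2 ratio of mesenchymal-like to erythroid-like was 0.69 (0.54 to 0.84) for Acta2, 0.64 (0.29 to 1.01) for Actg2, 0.57 for Tagln, 0.85 for Myl9 and -0.07 (-1.11 to 0.98) for Myh11. On totals without haemoglobin and mitochondrial genes it was 0.22 (0.07 to 0.36) for Acta2, 0.17 (-0.19 to 0.53) for Actg2 and 0.38 for Myl9.

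The proportions among members did not differ beyond counting error between these classes. Per 100 Acta2 counts, mesenchymal-like wells held 17.0 of Actg2 (14.5 to 20.0), 16.9 of Tagln (14.4 to 19.9) and 20.6 of Myl9 (17.8 to 23.9). Erythroid-like wells held 17.6 of Actg2 (14.1 to 21.7), 18.4 of Tagln (14.9 to 22.7) and 18.4 of Myl9 (14.9 to 22.7). Each pair of intervals overlapped.

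Other mesenchymal genes were also present in the erythroid-like wells. Col1a1, the main fibrillar collagen gene, was in 100% of the wells of the main erythroid-like cluster (median 8 counts, 2241 CPM) and at 4236 CPM in the mesenchymal-like wells. The sum of 10 mesenchymal markers was 5568 CPM in the former (9 of 10 with a count) and 11736 in the latter (10 of 10), and the sum of 11 erythroid markers 418827 and 216285 CPM. The part of free RNA or of mixed wells in the Acta2 counts of this cluster was not tested.

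Wells given the same class name in different pools were then set side by side. Erythroid-like wells of the E11.5 AGM positive pool (78 wells) had Acta2 at 62.7 CPM, and those of the negative yolk sac were 12.6-fold higher (log2 3.66, 2.87 to 4.57). The 2 sets share a name but lie in different clusters: 77 of the former are in cluster 4, where the 10 mesenchymal markers summed to 392 CPM, and 191 of the latter in cluster 1, where they summed to 5568. Myl9 had 108 counts in the latter and 0 in the former. That is 10.1-fold higher with 0 set to 3 counts in the class, and the lower limit of the exact interval was a log2 ratio of 3.01. Visceral endoderm-like wells gave 767 CPM of Acta2 in the negative yolk sac pool and 26.5 in the positive one (15 wells, 2 counts), a log2 ratio of 4.86 (2.91 to 7.95). Of the mesenchymal-like wells, 9 came from the positive yolk sac pool, with 9 Acta2 counts (274 CPM).

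**Figure D5:**
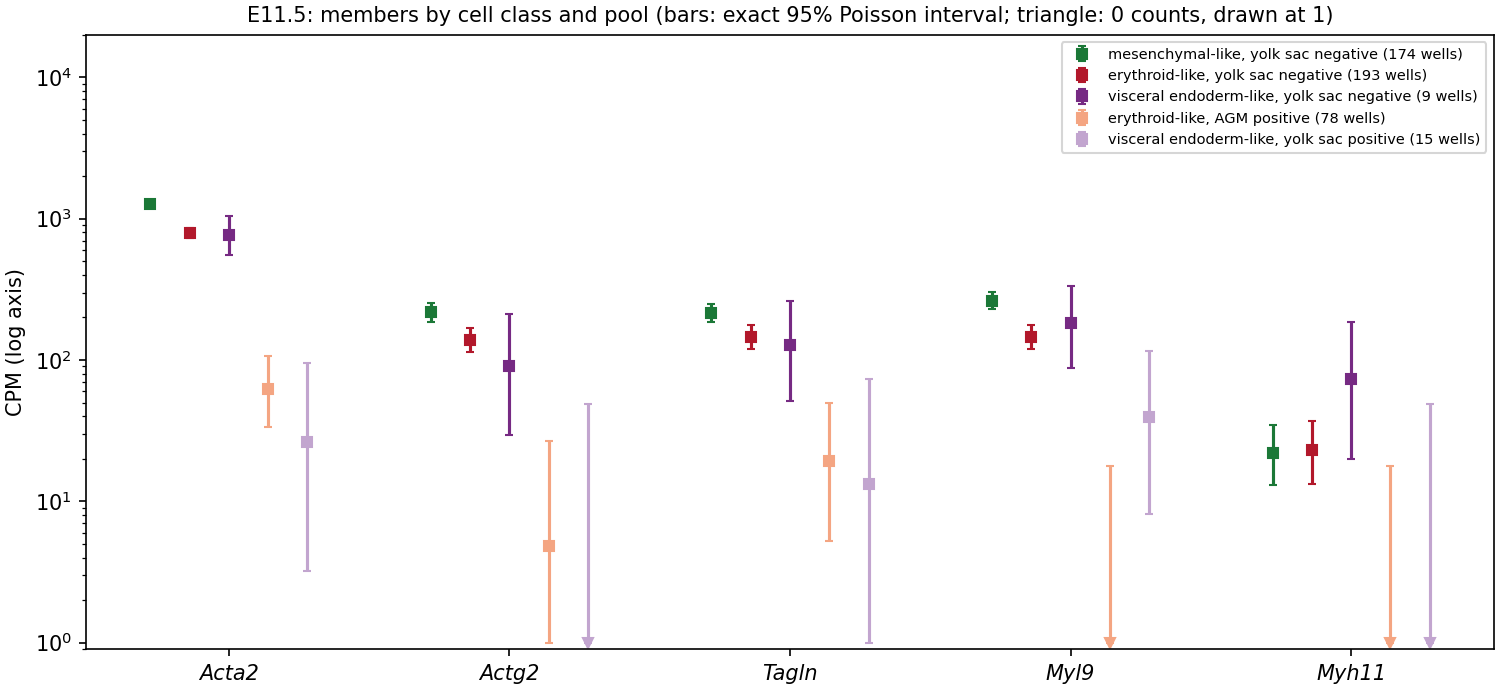
Level of 5 genes (CPM, log axis) by cell class and pool at E11.5, with exact 95% Poisson intervals and triangles for 0 counts. The 3 classes of the yolk sac negative pool (green, red, purple) have Acta2 at 767 to 1276 CPM, whereas the sets drawn in pale colours, erythroid-like wells of the AGM positive pool and visceral endoderm-like wells of the yolk sac positive pool, have 62.7 and 26.5.

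At E9.5 the negative yolk sac showed a like spread over its wells. Acta2 stood at 90.0 CPM in 86 mesenchymal-like wells and 95.4 in the other 219, which formed 1 unnamed cluster. Tagln was higher in the mesenchymal-like wells, 40.9 against 25.0 CPM (log2 0.71, 0.15 to 1.26). In the E9.5 AGM negative pool the larger cluster (279 wells) had Acta2 at 58.5 CPM and the smaller (75 wells, which also carried neural markers) at 35.0 (0.74, -0.04 to 1.60), while 10 mesenchymal markers summed to 420 CPM in the larger and 590 in the smaller.

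In the E11.5 AGM negative pool the richest well held 53 member counts of 2939 in all: 22 of Acta2, 14 of Myl9, 12 of Tagln, 3 of Myh11, 1 of Actg2 and 1 of Cnn1. The same well had 19 counts of the tropomyosin Tpm1 and 8 of the caldesmon gene Cald1, 0 counts over 11 cardiac markers and 1 over the skeletal ones. It thus carried every member and lay in an unnamed cluster.

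The next well held 35 member counts of 9337, of which 32 were Acta2 and none Myh11 or Cnn1. It had 100 counts of the giant sarcomere protein gene Ttn, 63 of Actc1, 46 of Tnnc1, 19 of Acta1, 4 of Myog and 2 of Myod1, the last pair being regulators of skeletal muscle. Acta2 in that well therefore came with genes of striated muscle. Over the pool, 11 cardiac and 10 skeletal markers summed to 710 and 262 CPM, against 73.0 and 9.81 in the E11.5 yolk sac negative pool. Without both wells Acta2 in the pool stood at 142 CPM.

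Wells holding several members at once were common in one pool. In wells thinned to 2000 counts, 70 of 364 (19.2%, 15.3 to 23.7) of the E11.5 yolk sac negative pool held 3 or more members, against 1.99% of the E11.5 AGM negative wells and 0% to 0.658% elsewhere (not thinned, 41.4%, 4.73% and 0% to 11.8%). Single members were also in more thinned wells of that pool than of any other: Acta2 in 79.7%, Tagln in 28.3%, Actg2 and Myl9 in 27.5% each. Whether members met in wells more often than these shares alone would give was not tested. Within the pool, wells with and without Acta2 were compared. Of 290 thinned wells with Acta2, 28.6% had Tagln, 26.9% Myl9 and 29.7% Actg2, and of 74 without it 27.0%, 29.7% and 18.9%. Thinned to 1000 counts, the shares were 19.3%, 16.1% and 17.0% of 223 wells with Acta2 and 10.9%, 16.7% and 14.7% of 156 without it.

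Other genes of the contractile apparatus and cytoskeleton, a list of 20 of which all 20 were measured, shared the members' rise in the yolk sac but not their place at E9.5. In the negative yolk sac 16 of 17 were at least 2-fold higher at E11.5 (31.1% of all genes tested), with a median of 2.53 against 0.18, among them Tpm1 at 2.88, Cald1 at 2.93 and Des, the muscle intermediate filament, at 2.57. In the E9.5 yolk sac, 0 of 16 were higher and 13 lower in the negative pool, where 41.6% of all genes tested were lower and the members with enough counts were all higher. Both E11.5 gate pairs had 11 of 17 higher and 0 lower in the negative pool, where 42.5% of all genes tested were higher in the AGM and 15.1% in the yolk sac, Tpm2 at 2.92 in the AGM and 2.73 in the yolk sac. With TMM scaling the counts were 0 higher and 7 lower for the E9.5 yolk sac, 4 and 1 for the AGM of E11.5 and 11 and 0 for its yolk sac.

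Between the negative pools at E9.5, 11 of 15 of this list were higher in the AGM and 0 lower (5 and 1 with TMM scaling), and of all genes tested 56.8% were higher and 4.76% lower. At E11.5 it was 1 of 18 higher and 1 lower: Synpo2, an actin bundler of muscle, at 2.54 and Des at -2.48 (1 and 9 with TMM scaling). Of all genes tested in that pair 46.1% were higher and 5.96% lower. Synpo2 was higher in the AGM at both stages (3.14 at E9.5). At E11.5 the median of the list was -0.03 and that of the 5 members with enough counts -1.66, or -0.90 and -2.54 with TMM scaling. Myh11, at -0.01, and Cnn1, at 2.31 from few counts, lay apart from the other members.

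Regulators of smooth muscle were listed by 16 symbols, older and newer names of Mkl1 and Mkl2 included, and 13 of them were measured. Mkl1 and Mkl2, cofactors of serum response factor, were higher in the negative AGM at both stages, Mkl1 at 2.12 and 1.59 and Mkl2 at 3.03 and 1.05, where the medians of all genes tested were 1.18 and 0.91. With TMM scaling Mkl1 stood at 0.98 and 0.72 and Mkl2 at 1.89 and 0.18. At E11.5, 5 of 11 with enough counts were higher in the AGM (3 with TMM scaling), as were 46.1% of all genes tested. Named after their values were seen, the higher ones besides Mkl1 and Mkl2 were Tbx18 (3.04), Klf4 (2.69) and Mef2c (1.99). Lower in the AGM were, among others, Hand1 (-4.82), Nkx2-3 (-2.85), Hand2 (-2.38) and Tcf21 (-1.96), transcription factors of lateral and visceral mesoderm among them.

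Mef2c was the one regulator lower in the negative pool of all 4 gate pairs, from -1.10 in the E11.5 AGM to -2.93 in the E9.5 yolk sac. Myocd, the coactivator that defines the smooth muscle programme, was also looked up after the values were seen. It had 10 counts in the E11.5 AGM negative pool (9.14 CPM), 5 in the E9.5 AGM negative pool, 2 in the E11.5 yolk sac negative pool (1.23 CPM) and 0 to 1 in the rest. Srf stood at 9.20 CPM (15 counts) in the E11.5 yolk sac negative pool and 13.7 (15 counts) in the AGM one.

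Markers of neighbouring cell types were sparse. Of 9 pericyte genes 7 were measured, with a sum of 143 CPM in the E11.5 AGM negative pool and less in the yolk sac one, with counts of 7 and 6 of the 7. Notch3, a receptor of mural cells, was higher in the negative AGM at both stages (3.69 at E9.5, 2.22 at E11.5). All 8 mesothelium genes were measured, summing to 150 CPM in the E11.5 yolk sac negative pool (8 of 8 with a count) and 67.7 in the AGM one (6 of 8). Upk3b, a mesothelial membrane protein gene, was lower in the negative AGM at both stages (-1.71 and -2.42) and Wt1, a factor of mesothelium and gonad, was higher (3.18 and 4.13). The part of these cell types in the members' levels was not tested.

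Over the 8 pools, the genes whose log2(CPM + 5) ran most like that of Acta2, among 6638 genes with 50 or more counts in their highest pool, were Ak5 (Pearson r = 0.974), Hsd11b2 (0.968), Wisp1 (0.966), Smarca1 (0.959) and Mab21l2 (0.955). For Actg2 they were Ak5 (0.982), Wisp1 (0.980), Mab21l2 (0.972), Cryab (0.967) and Copz2 (0.965). The actins had r = 0.948 with each other, rank 11 in both lists. Each of these correlations is a description over 8 pools that share chips and totals, and the E11.5 yolk sac negative pool carries much of them: Hsd11b2 stood at 156 CPM there, 19.2 in the E11.5 AGM negative pool and at most 14.0 elsewhere.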

How the data were processed

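Single cells of 8 sorted pools were run on 2 ICELL8 chips and read on 1 NextSeq 500. For each chip the authors deposited a table of raw counts, genes by wells. FastQC, cutadapt and STAR and the build mm10 (GRCm38) are named in the submitters' processing notes. Their versions, the counting tool, its use of strand and molecular identifiers are not given in the sources used here, so a count may be a copy of another.

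Groups came from the deposited table of wells. Counts of wells with 500 or more genes were summed for each pool and given as CPM with exact Poisson intervals. Shares of wells have Clopper-Pearson intervals and ratios of CPM exact conditional ones, all at 95% and covering counting error only. A side with 0 counts was taken as 3 counts (the floor, for a pool or a class), and no ratio was taken when both sides had 3 or fewer. The 12 comparisons (4 gate, 4 tissue, 4 stage) have 1 sample a side. Clusters were made for each stage with scanpy 1.11.5 (2000 variable genes, 30 components, 15 neighbours, Leiden resolution 1) and named from marker lists. Scrublet marked 8 of 1283 wells (0.624%) at E9.5 and 7 of 1361 (0.514%) at E11.5, which were kept. TMM factors came from edgeR 4.0.16. Sequences were read from GENCODE transcripts and RefSeq promoters, aligned with Biopython 1.88. The interval script was tested on simulated data.

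All members were named whatever their values. Listed genes were named where the ratio passed 2-fold in one direction in both stages of the negative tissue comparison or in all 4 gate pairs, and the 5 genes most like each actin were named. Other listed genes given with ratios, Tpm1, Cald1, Des and Tpm2 among them, fell outside this rule. The members and lists were chosen with earlier results of these data known. The values of 1 listed gene are not reported here.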

Additional observations from a re-analysis of the deposited data

Results flagged for a closer look

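Several members pointed in opposite directions in pairs of the same contrast. None of these differences was tested, since each pool is 1 sample. Acta2 in the positive pools, AGM over yolk sac, had a log2 ratio of 1.66 at E9.5 and -0.97 at E11.5. Tagln in the negative pools had 0.83 at E9.5 and -1.66 at E11.5 for the same contrast, and Myl9 1.16 and -1.15. The E9.5 values of Tagln and Myl9 became -0.30 and 0.03 with TMM scaling, so the change of direction is not held by every scaling. For E11.5 over E9.5, Tagln had -2.07 in the AGM positive pools and 1.34 in the yolk sac positive ones (18 counts against 8, and 2.02 without the 2 wells of each pool with most member counts). Myl9 had -1.47 in the AGM positive pools, 1.12 in the AGM negative and 1.17 in the yolk sac positive ones.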

How the results depend on the processing

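Of 24 member ratios by gate 16 were at least 2-fold higher in the negative pool, 10 with wells thinned to 2000 counts (fewer counts pass the minimum) and 11 to 16 otherwise. In the negative pools 6 of 12 tissue ratios were lower in the AGM (4 to 7 over all alternatives) and 9 of 12 stage ratios higher at E11.5 (6 to 9). The balance of Actg2 to Acta2, AGM over yolk sac, ranged from -0.63 to -0.15 at E11.5 and from -1.20 to -0.18 at E9.5. Wells with 3 or more members were 19.2% of the E11.5 yolk sac negative pool, 41.4% with no thinning and 5.28% with thinning to 1000, which changes depth. The log2 ratio of Acta2 between mesenchymal-like and erythroid-like wells was 0.69, 0.85 at resolution 2 and 0.22 on totals without haemoglobin and mitochondrial genes, and could not be given at resolution 0.5, where no erythroid-like class formed in that pool. No ratio past 2-fold changed sign. Chosen after seeing the data were the alternatives without the 2 richest wells, without erythroid-like wells, and the class ratio on reduced totals. No paired analysis was possible because each pool is 1 sample and the labels give no replicate numbers. Depth limits Cnn1 and Myh11 most.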
